A study of Mus musculus with 4 samples.

Results

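The Myc and Myb proto-oncogene families were described in mouse embryonic stem cells before and after aggregation culture. The set held 10 genes, Myc, Mycn, Mycl, Max, Mxd1, Mxd3, Mxd4, Myb, Mybl1 and Mybl2, of 18193 genes measured, and 25 probe sets of 45037 carried their symbols. Genes were chosen by name, with earlier results of these data known, and the probe set that stands for a gene was selected on measured values, namely the highest mean over the 4 arrays. Those means are given below as a description only.

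RNA was hybridized to Affymetrix arrays, which read a gene as the brightness of short probes grouped into probe sets. At day 3, 2 samples of epiblast-like tissue were measured. They had been grown as floating aggregates in serum-free medium after quick reaggregation, a method named SFEBq. At day 0, 2 samples of the embryonic stem cells were measured. The labels name neither the stem cell line nor any genetic change, and they do not say that duplicates came from separate cultures. The p-values cover only how far duplicates lay apart, in the gene tested and in other genes of similar level. That spread may be technical.

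Myc proteins are transcription factors that pair with Max to bind the E-box sequence CACGTG and activate genes of growth and proliferation. Mxd proteins compete for Max at the same sites and recruit co-repressors, often in cells that leave the cycle. Myb proteins bind DNA through a separate domain. Myb (c-Myb) is best known from blood progenitors, Mybl1 (A-Myb) from male meiosis, and Mybl2 (B-Myb) from cycling cells, where it activates mitotic genes together with the MuvB complex. In mouse stem cells Myc is known to act downstream of leukemia inhibitory factor and Stat3.

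RefSeq promoter windows (GRCm38.p6, 250 bases before to 50 bases after a start) were found for 8 of the 10 genes. Windows of Myb, Mybl2 and Max are shown, because Myb and Mybl2 moved in opposite directions while sharing a 9-letter stretch near the start, and because Max carries an E-box at its own start. Capitals mark TTGGCGGGA, a stretch of the E2F type, in the Myb and Mybl2 windows and CACGTG in the Max window.
Myb (chr10:21160935-21161234, minus strand): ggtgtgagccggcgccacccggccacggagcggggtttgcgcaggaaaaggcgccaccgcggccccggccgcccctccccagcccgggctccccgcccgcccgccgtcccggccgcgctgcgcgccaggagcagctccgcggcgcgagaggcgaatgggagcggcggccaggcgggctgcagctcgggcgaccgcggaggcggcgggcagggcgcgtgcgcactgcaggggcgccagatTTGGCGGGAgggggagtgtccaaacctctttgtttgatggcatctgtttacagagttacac
Mybl2 (chr2:163054385-163054684, plus strand): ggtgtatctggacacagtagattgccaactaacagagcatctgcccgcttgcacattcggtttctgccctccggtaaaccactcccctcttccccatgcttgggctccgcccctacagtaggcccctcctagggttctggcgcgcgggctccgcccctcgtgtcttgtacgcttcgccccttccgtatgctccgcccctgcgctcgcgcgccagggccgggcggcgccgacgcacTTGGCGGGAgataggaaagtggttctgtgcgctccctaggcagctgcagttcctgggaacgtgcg
Max (chr12:76962199-76962498, minus strand): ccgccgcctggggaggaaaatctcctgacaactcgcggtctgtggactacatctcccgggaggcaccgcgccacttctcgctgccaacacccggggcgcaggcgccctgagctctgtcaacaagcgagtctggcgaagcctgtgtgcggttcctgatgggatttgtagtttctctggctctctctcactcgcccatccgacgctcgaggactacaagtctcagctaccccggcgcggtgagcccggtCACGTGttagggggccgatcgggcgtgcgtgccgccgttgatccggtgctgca

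Both strands of the 32851 windows in the RefSeq table were searched for 3 motifs, which did not overlap in the windows of these genes. TTGGCGGGA, chosen after the Myb and Mybl2 windows were read, was present in 0.268% of all windows, and among the 8 windows in those of Myb and Mybl2, each on the plus strand of the window. It began 11 bases before the Myb start and 15 bases before the Mybl2 start. Only these exact letters were searched for, so other stretches of the E2F type in the 8 windows were not counted. The E-box CACGTG was present in 7.15% of all windows, and among the 8 in those of Max, beginning 3 bases before the start, and Mxd4, beginning 219 bases before it. TTTGAA, a cell cycle homology element, was present in 17.9% of all windows, and among the 8 in that of Mycn. These matches describe the letters only.

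Differences are day 3 minus day 0 on the log2 scale, on which 1 unit is 2-fold, with the standard error (SE) of a limma fit over all genes. A gene was called at a Benjamini-Hochberg adjusted p under 0.05 over all 18193 genes. At day 3, 4 of the 10 genes were higher (Myb, Mycl, Mxd4 and Mycn), 5 were lower (Myc, Mybl2, Mxd3, Mybl1 and Max), and Mxd1 was not called. Of all genes, 42.3% were called, 20.9% higher and 21.4% lower (3803 and 3900 genes). Centring each array on the median of its genes moved every difference down by 0.13 and gave 2864 higher and 5652 lower genes, with the same 4 higher and 5 lower among the 10. Calls were more frequent among bright genes, with 62.7% above and 21.9% at or below the median level, and 7 of the 10 lay above it. At least 2-fold differences were called for 4 of the 10 (Myb, Mycl, Myc and Mybl2), against 10.2% of all genes. Day 3 and day 0 values were fully separated for all 10 and for 69% of all genes. The median difference of the 10 was -0.33, and that of all genes was 0.01.

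With an unmoderated test per gene, 4 of the 10 were called (Myb, Mycl, Mybl2 and Mxd3), and Myc then had an adjusted p of 0.065. Over all probe sets, 6 of the 25 were called higher, 8 lower and 11 were not called, where 30.9% of all probe sets were called, 14.2% higher and 16.7% lower.

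**Figure D1:**
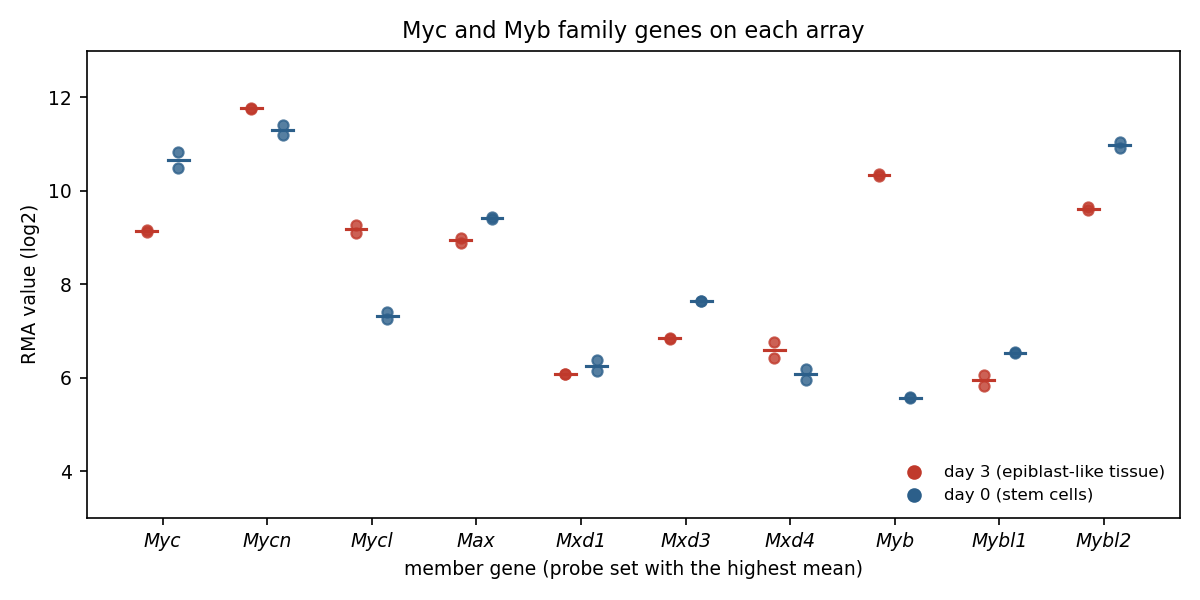
RMA values (log2, vertical axis) of the 10 genes on each array, with day 3 left of day 0. Points are arrays (2 per day) and horizontal lines are means. Myb lies at 10.36 and 10.32 at day 3, against 5.59 and 5.56 at day 0, while Myc and Mybl2 lie lower at day 3.

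Of the 3 Myc genes, Myc was lower at day 3 and Mycn and Mycl were higher. Myc (gene ID 17869, chromosome 15) had log2 values of 9.17 and 9.13 on the day 3 arrays, against 10.83 and 10.50 on the day 0 arrays. Both day 3 values lay close together and below the lower day 0 value, and the day 0 duplicates differed more between themselves. Myc fell by 1.51 ± 0.10 (SE), so that day 0 was 2.86-fold higher (limma, adjusted p = 5.5e-07). Leaving out 1 array at a time gave differences of -1.68 to -1.35. Myc had a single probe set.

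Mycl (gene ID 16918, chromosome 4), encoding L-Myc, a family member of narrower tissue range, had values of 9.27 and 9.11 at day 3, against 7.25 and 7.41 at day 0. The days were separated by far more than the duplicates. Mycl rose by 1.86 ± 0.10 (SE), or 3.63-fold (limma, adjusted p = 1.0e-07). Its other probe sets had means over the 4 arrays of 5.08 and 4.65, against 8.26 for the probe set kept, and smaller differences, 0.19 ± 0.15 and 0.42 ± 0.15, that were not called over all probe sets (adjusted p = 0.40 and 0.063). The second of these was called, at 0.56, when day 0 replicate 1 was left out (adjusted p = 0.031). The mean of the 3 probe sets gave a rise of 0.82.

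Mycn (gene ID 18109, chromosome 12), encoding N-Myc, a family member of embryonic and neural progenitors, had values of 11.78 and 11.76 at day 3, against 11.41 and 11.19 at day 0. The gap between the days was less than 2-fold, and the day 0 duplicates again differed more. Mycn rose by 0.47 ± 0.07 (SE), or 1.38-fold (95% confidence interval 1.24 to 1.55; limma, adjusted p = 3.7e-04). Its other 2 probe sets had differences of 0.29 ± 0.11 and 0.05 ± 0.11 and were not called over all probe sets (adjusted p = 0.069 and 0.80). The first of these was called without day 3 replicate 2 (0.42, adjusted p = 0.045). From the mean of the 3 probe sets the Mycn rise was 0.27.

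Max and the Mxd genes differed less than 2-fold. Max (gene ID 17187, chromosome 12), the shared partner of Myc and Mxd proteins, had values of 8.89 and 8.99 at day 3, against 9.44 and 9.40 at day 0, all day 3 values below all day 0 values. Max fell by 0.48 ± 0.08 (SE), so that day 0 was 1.40-fold higher (limma, adjusted p = 3.9e-04). Mxd3 (gene ID 17121, chromosome 13), an Mxd gene known from proliferating progenitors, had values of 6.82 and 6.86 at day 3, against 7.65 and 7.64 at day 0. The duplicates of each day were nearly equal. Mxd3 fell by 0.81 ± 0.10 (SE), so that day 0 was 1.75-fold higher (limma, adjusted p = 5.7e-05). A further Mxd3 probe set fell by 0.77 ± 0.12, and the remaining one, at -0.34 ± 0.14, did not pass (adjusted p = 0.11).

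Mxd4 (gene ID 17122, chromosome 5) had values of 6.43 and 6.77 at day 3, against 5.96 and 6.19 at day 0. The gap between the days was about as wide as the gap between duplicates. The Mxd4 difference of 0.52 ± 0.14 (SE) was called (limma, adjusted p = 0.012). It was not called without day 3 replicate 2 (0.36, adjusted p = 0.15) or from the mean of the 4 Mxd4 probe sets (0.15, adjusted p = 0.29). The probe set kept had a mean over the 4 arrays of 6.34 and the next one 6.25, and that next one differed by 0.29 ± 0.16 (adjusted p = 0.22 in the fit of all probe sets). In that fit, leaving out day 0 replicate 1 ended the call of the kept probe set (0.41, adjusted p = 0.090), and the next one was then called (0.53, adjusted p = 0.019). The last 2 Mxd4 probe sets had differences of -0.04 and -0.18, neither of them called.

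Mxd1 (gene ID 17119, chromosome 6), the founding Mxd gene, had values of 6.07 and 6.08 at day 3, against 6.37 and 6.14 at day 0. For Mxd1 the fit gave -0.18 ± 0.12 (SE), which did not pass the test (limma, adjusted p = 0.30), and the 95% confidence interval ran from -0.45 to 0.10. None of its 3 probe sets was called, with differences of -0.23 to -0.08.

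**Figure D2:**
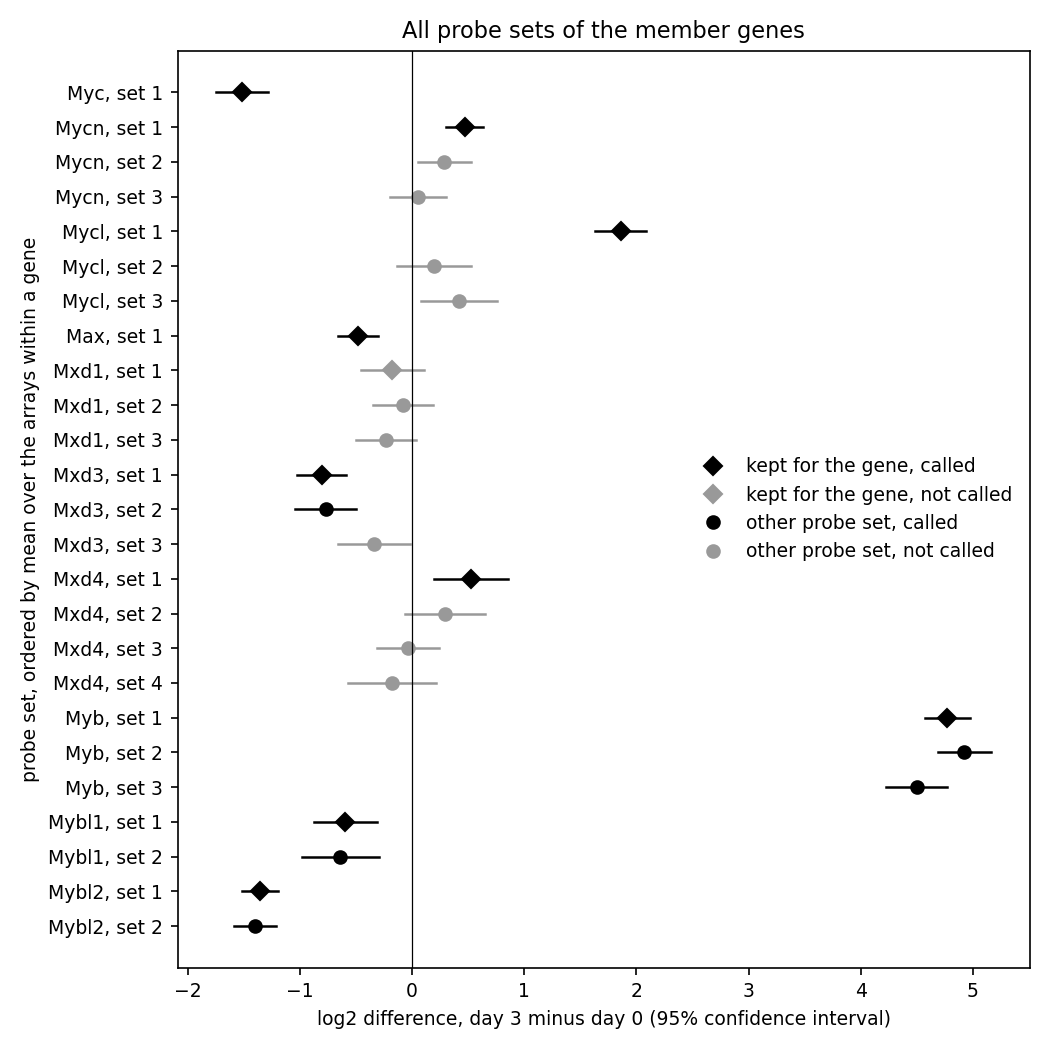
Log2 difference of all 25 probe sets (horizontal axis, day 3 minus day 0) with 95% confidence intervals, ordered within a gene by mean over the arrays. Diamonds mark the probe set kept for a gene, and black marks those called over all probe sets. The 3 Myb probe sets lie at 4.50 to 4.92 and those of Mybl2 at -1.40 and -1.36, while the 3 Mycl probe sets spread from 0.19 to 1.86.

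Of the Myb genes, Myb was higher at day 3, and Mybl2 and Mybl1 were lower. Myb (gene ID 17863, chromosome 10) had values of 10.36 and 10.32 at day 3, against 5.59 and 5.56 at day 0. The duplicates of each day were nearly equal, and both day 0 values lay below the arrays' median of 5.78 to 5.79. Myb rose by 4.77 ± 0.09 (SE), or 27.3-fold (95% confidence interval 23.9 to 31.2; limma, adjusted p = 1.1e-10). Its other probe sets, which share a target with the first and are no replicates of it, rose by 4.92 ± 0.11 and 4.50 ± 0.12. All 3 belong to classes whose probes match several transcripts or sequences, so Myb had no value when such probe sets were left out, and neither did Myc. The lowest Myb probe set had values of 8.08 and 8.003 at day 3, against 3.50 and 3.58 at day 0, the last pair below the arrays' first quartile of 4.30 to 4.33. Whether such levels differ from background was not measured.

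Mybl2 (gene ID 17865, chromosome 2) had values of 9.65 and 9.60 at day 3, against 10.92 and 11.05 at day 0. The days were well apart and the duplicates close. Mybl2 fell by 1.36 ± 0.07 (SE), so that day 0 was 2.57-fold higher (limma, adjusted p = 8.4e-08). Its other probe set had values of 8.35 and 8.38 at day 3, against 9.84 and 9.70 at day 0, and fell by 1.40 ± 0.08 (adjusted p = 1.0e-06 over all probe sets).

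Mybl1 (gene ID 17864, chromosome 1) had values of 6.06 and 5.82 at day 3, against 6.54 and 6.53 at day 0, so the day 3 duplicates were the more spread. Mybl1 fell by 0.59 ± 0.12 (SE), so that day 0 was 1.51-fold higher (limma, adjusted p = 0.0025). Its other probe set, with means of 3.42 at day 3 and 4.06 at day 0 that are both under the first quartile, fell by 0.64 ± 0.15. Without day 3 replicate 2 the Mybl1 probe sets had differences of -0.47 and -0.43. Neither was then called in the fit over all probe sets, while Mybl1 kept its call in the fit over all genes.

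**Figure D3:**
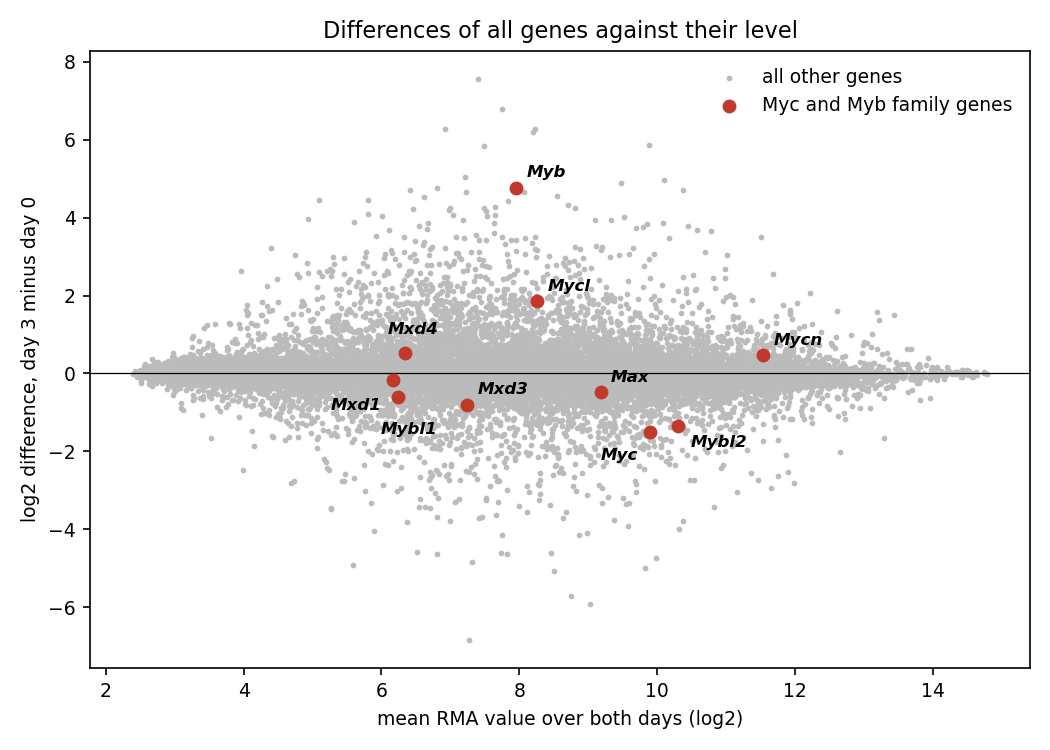
Log2 difference (vertical axis, day 3 minus day 0) against the mean RMA value over both days (log2, horizontal axis), with 1 grey point per gene and the 10 Myc and Myb family genes in red. Myb, at 4.77, lies among the few genes at the upper edge, and Mxd1, Mxd4, Mybl1, Max and Mycn lie within the dense band around 0.

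The patterns nearest to that of Myb, by Euclidean distance over the 4 arrays between log2 values centred on each gene's mean, were those of Pim2, a serine/threonine kinase gene (distance 0.094), Ctsc, a lysosomal protease gene (0.19), and Maf, a transcription factor gene (0.21). Their differences were 4.70, 4.96 and 4.70. When the probe sets of a gene were averaged, Ctsc differed by 2.51 and Maf by 1.66. The patterns nearest to that of Myc were those of Zbtb45 (distance 0.042), A930004D18Rik (0.076) and Fam221a (0.082), with differences of -1.52, -1.51 and -1.56. From the mean of its probe sets A930004D18Rik had a difference of -0.46. With 2 groups of 2 arrays these distances mostly rank genes by the size of the difference.

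The stem cell and epiblast labels were set against marker genes. All 8 markers of naive pluripotency were lower at day 3, with the largest differences for the transcription factor genes Prdm14 (-4.84), Klf4 (-3.80) and Tfcp2l1 (-3.33). All 7 markers of the epiblast were higher, led by the growth factor gene Fgf5 (7.57) and the transcription factor genes Sox3 (4.25) and Pou3f1 (3.87). From the mean of their probe sets Tfcp2l1 differed by -1.13, Fgf5 by 5.05 and Sox3 by 2.30. Of 9 markers of visceral endoderm, an extra-embryonic tissue, 8 were higher, led by Apob, an apolipoprotein gene (6.79), Cubn, an endocytic receptor gene (5.86), and Ttr, a transport protein gene (4.32). The ninth, Gata6, had a difference of -0.25 and was not called, but was called lower without day 0 replicate 2 and after median centring. The summed linear signal of the 9 markers was 21369 to 23864 at day 3, against 2119 to 2328 at day 0. From the mean of their probe sets Apob differed by 3.94 and Ttr by 7.68. Of 8 fibroblast markers, 3 were higher (Thy1, Dcn and Col1a2) and 5 were not called, so that 37.5% were called against 42.3% of all genes. Only Thy1 lay above the median level, and 2 lay below the first quartile on all arrays. Summed signals were 580 to 590 at day 3, against 317 at day 0. Thy1, the brightest of the 8, had the largest difference (1.82), and the 5 not called had differences of 0.01 to 0.15. Col1a2 lost its call without day 3 replicate 2 (0.47, adjusted p = 0.058). The summed visceral endoderm and fibroblast signals moved on the same arrays as every result on the Myc and Myb genes. Their part in these results was not tested. In bulk RNA, a change in the number of cells of a type and a change of RNA per cell cannot be told apart, and effects of the culture cannot be told apart from those of cell state.

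Since Myb marks blood progenitors, blood cell markers were set beside it. Of 11 such markers, Cd34, a surface sialomucin gene, was called higher, and 10 were not called. The 9.09% called compare with 42.3% of all genes. Only 2 of the 11 lay above the median level, and at or below that level 21.9% of genes were called. Cd34 had values of 4.66 and 5.30 at day 3, against 4.32 and 3.96 at day 0, and lost its call without day 3 replicate 2 (0.52, adjusted p = 0.089). Tal1, a blood and endothelial transcription factor gene, had a difference of 0.34 ± 0.13 (SE, limma adjusted p = 0.061). In the fit on means of probe sets the Tal1 difference was unchanged at 0.34, but it was called (limma, adjusted p = 0.038). Median centring gave 0.21 and leaving out day 3 replicate 2 gave 0.21. Itga2b, a platelet integrin gene, had a difference of -0.19 ± 0.10 (adjusted p = 0.19) that was called after renewed quantile normalization or median centring (-0.31 and -0.32). The markers' summed linear signal was 701 to 719 at day 3, against 726 to 731 at day 0, a sum made up mostly of brighter markers that were not called. The part of blood cells in the Myb difference was not tested.

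Of 11 measured cofactors and targets of c-Myb, 4 were higher, 3 lower and 4 not called, so that 63.6% were called against 42.3% of all genes. The median difference of 0.12 was -0.01 after the arrays were centred on their medians and -0.06 over genes above the median level. Kit, a receptor tyrosine kinase gene and a known Myb target in blood cells, had values of 8.44 and 8.41 at day 3, against 10.61 and 10.73 at day 0. Kit fell by 2.24 ± 0.07 (SE; limma, adjusted p = 4.2e-09), opposite in sign to Myb. The mean of the Kit probe sets gave -1.68. Hipk2, a nuclear kinase gene whose product can promote Myb degradation, rose by 1.82 ± 0.14 (0.47 from the mean of its probe sets). Cd34, also on this list, had the difference of 0.84 ± 0.20 given by the values above. Without day 0 replicate 1 or day 3 replicate 2 the counts of the list were 2 higher and 1 lower, without day 3 replicate 1 they were 3 and 1, and after median centring 2 and 3.

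Mitotic genes activated by B-Myb were mostly lower at day 3, with 9 of 13 measured lower, Plk1 higher and 3 not called. All 13 lay above the median level, where 62.7% of genes were called, against 76.9% of this list. Of all genes 21.4% were called lower, as were 3226 of 9096 in a fit of the genes above the median level only. The differences of the 13 were small, with a median of -0.35 and the largest at -0.60 for Kif20a, a mitotic kinesin gene. Aurka, a centrosomal kinase gene, fell by 0.53 ± 0.07 (SE) and Cdk1, the mitotic cyclin-dependent kinase gene, by 0.51 ± 0.06 (limma, adjusted p = 8.0e-05 and 8.6e-05). With 1 array left out, 8 or 9 were lower, and Plk1 lost its call without day 0 replicate 2, without either day 3 array and after median centring.

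MuvB binds either B-Myb, in an activating complex, or pocket proteins and E2F factors, in the repressive DREAM complex. Of 12 genes of MuvB, of the DREAM complex and Foxm1, 3 were higher, 3 lower and 6 not called. The 50% called compare with 42.3% of all genes, and 10 of the 12 lay above the median level, where 62.7% were called. The median of -0.04 had no settled sign, since it was -0.17 after median centring, -0.10 from the mean of probe sets, 0.05 over genes above the median level and 0.12 without probe sets matching several transcripts. Rbl2, a pocket protein gene of the repressive DREAM complex, had values of 5.19 and 5.03 at day 3, against 6.45 and 5.89 at day 0. Rbl2 fell by 1.06 ± 0.17 (SE; limma, adjusted p = 5.1e-04), and the mean of its probe sets gave -0.84. The MuvB gene Lin37 fell by 0.55 ± 0.10, and Tfdp2, an E2F partner gene, rose by 0.42 ± 0.08 (0.23 from the mean of its probe sets). Without day 3 replicate 1 the counts were 1 higher and 2 lower, and after median centring 2 higher and 5 lower. Foxm1, a mitotic transcription factor gene that also binds MuvB, had a difference of -0.02 ± 0.09 and was not called (adjusted p = 0.90); it was chosen after its value was seen.

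Of 20 genes that Myc is known to activate, 2 were higher, 5 lower and 13 not called, with a median of -0.08. The 35% called compare with 42.3% of all genes, and 18 of the 20 lay above the median level, where 62.7% were called. Ldha, encoding lactate dehydrogenase A, had values of 13.42 and 13.20 at day 3, against 12.29 and 12.35 at day 0. Ldha rose by 0.99 ± 0.07 (SE) and Ccnd2, a cyclin gene of the G1 phase, by 0.63 ± 0.11, while Bop1, a ribosome biogenesis gene, fell by 0.63 ± 0.07 (limma, adjusted p = 1.0e-06, 8.5e-04 and 2.7e-05). The count depended on median centring, after which 14 were lower and 2 higher, with a median of -0.21. Renewed quantile normalization left 2 higher and 5 lower, with a median of -0.05. Without day 3 replicate 1, 2 were higher and 3 lower.

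Of 5 genes that Myc is known to repress, 2 were higher, 1 lower and 2 not called. The 60% called lay near the 62.7% of genes above the median level, to which 4 of the 5 belong, and 42.3% of all genes were called. Gadd45a, a stress response gene, fell by 1.73 ± 0.07 (SE), with values of 9.04 and 9.11 at day 3, against 10.82 and 10.80 at day 0 (limma, adjusted p = 1.2e-08). Ndrg1, a differentiation and stress gene, rose by 1.25 ± 0.09 (0.88 from the mean of its probe sets). Cdkn1b, encoding the cell cycle inhibitor p27, rose by 0.61 ± 0.07 (0.40 from the mean of its probe sets). The median of 0.30 ranged from 0.01 without day 3 replicate 2 to 0.58 without day 3 replicate 1.

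Of 14 measured Myc cofactors and regulators of Myc stability, 2 were higher, 7 lower and 5 not called, with a median of -0.28. Aurka, also counted among the mitotic genes above, was among the 7 lower. The 64.3% called lay near the 62.7% of genes above the median level, to which 13 of the 14 belong. Without day 0 replicate 1 the median was -0.18, and after median centring it was -0.41 with 9 lower. Pim1, a kinase gene and target of Stat3 whose product phosphorylates Myc, had values of 8.36 and 8.29 at day 3, against 10.56 and 10.58 at day 0. Pim1 fell by 2.25 ± 0.07 (SE; limma, adjusted p = 3.5e-09). Bin1, an adaptor gene whose product binds Myc, rose by 0.92 ± 0.14 (0.39 from the mean of its probe sets), and Usp28, a deubiquitinase gene whose product stabilizes Myc, by 0.74 ± 0.08.

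Of the 6 further genes of the Max network, 1 was higher, 2 were lower and 3 were not called. The 50% called compare with 42.3% of all genes, and 5 of the 6 lay above the median level, where 62.7% were called. Differences of the 6 ran from -0.36 to 0.26, with a median of 0.04 that was -0.10 after median centring. Mlx, a Max-like partner gene, fell by 0.36 ± 0.09 (SE) and lost its call without day 3 replicate 1 (-0.28, adjusted p = 0.093). Mga, a Max partner gene of repressive complexes, fell by 0.29 ± 0.06 and lost its call from the mean of its probe sets (-0.14, adjusted p = 0.21). Mlxip, a glucose-responsive partner gene of Mlx, had a difference of 0.26 ± 0.09 that was called (adjusted p = 0.032), but not without day 0 replicate 1 or either day 3 array, nor after either renewed scaling.

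**Figure D4:**
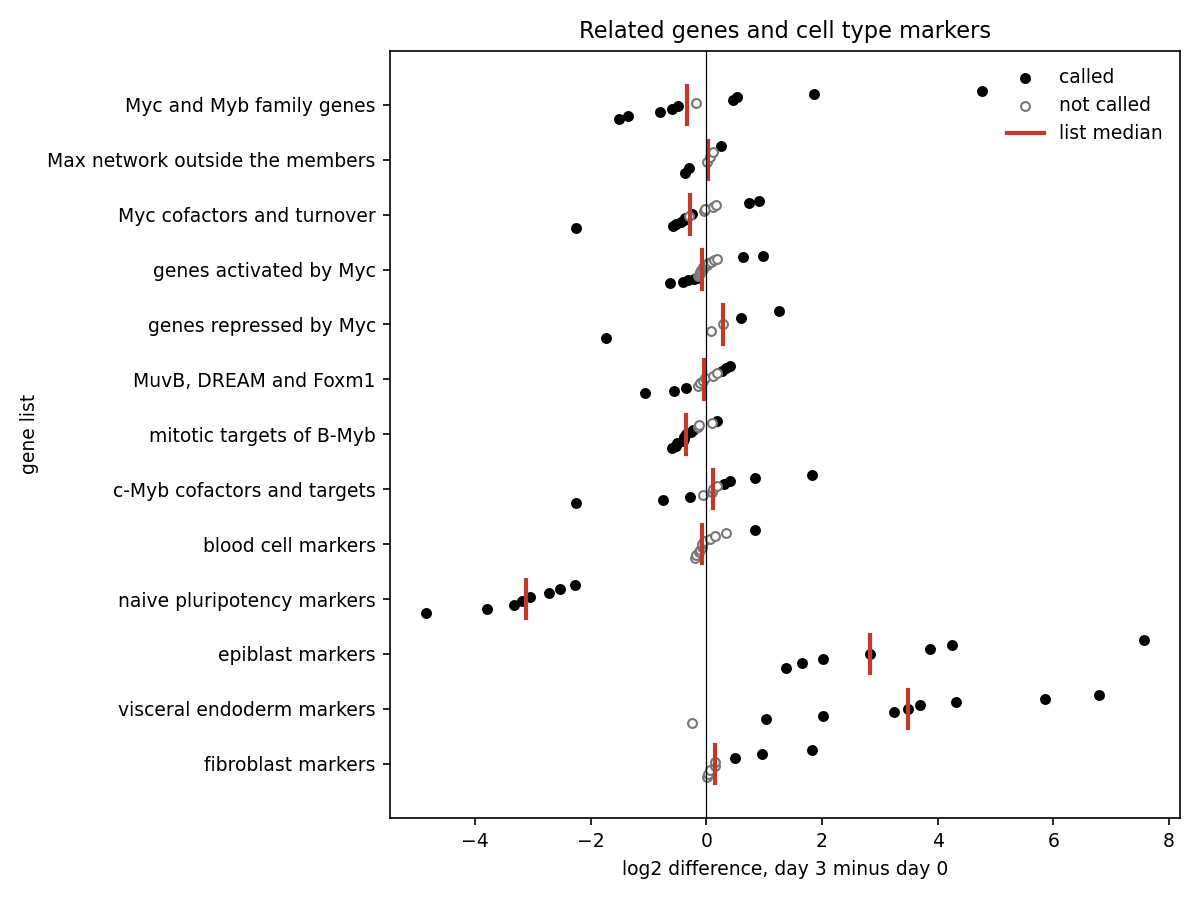
Log2 difference (horizontal axis, day 3 minus day 0) of each measured gene in the Myc and Myb families, in 7 lists of related genes and in 5 lists of cell type markers. Filled points were called, open points were not, and red lines are list medians, with naive pluripotency markers at a median of -3.11, epiblast markers at 2.83 and visceral endoderm markers at 3.49.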

How the data were processed

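The deposited log2 values, 1 per probe set and array, were made by the authors with RMA in R 2.13.0, per the submitters' processing notes. RMA removes background, equalises the distributions of the arrays and combines probes, so a change in total RNA per cell is not visible and differences of dim probe sets are compressed. Further settings and the genome build are not given in the sources used here. Pearson's r across genes was 0.9980 between day 3 arrays, 0.9975 between day 0 arrays and 0.962 between days. The number of arrays limits the precision.

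Of 45101 probe sets, 64 were controls, and 34945 others had 1 gene symbol in the platform annotation. For each of 18193 genes the brightest probe set by mean of the 4 arrays was kept, which can favour a probe set high on 1 day. Gene IDs of all 10 members were found in RefSeq (GRCm38.p6), which gave chromosomes and promoters.

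The fit used limma 3.58.1 under R 4.3.3 (lmFit, eBayes with an intensity trend), two-sided, with no covariate. It drew the variance of each gene towards that of genes of similar level, with 8.02 prior against 2 residual degrees of freedom. A second fit covered all 45037 non-control probe sets. Members and lists were chosen with earlier results of these data known, so counts over them are descriptions. Named were all members, the 3 genes of each list with the largest absolute difference, and the 3 nearest patterns to the members with the largest rise and fall. Plk1, Foxm1 and Gata6 were named after their values were seen. Of 127 list entries, a few were not analysed here. Alternatives were other variance estimates, renewed quantile normalization, median centring, genes above the median only, the mean of probe sets, probe sets of single transcripts only, a block for the replicate number, leaving out each array, a stricter threshold and treat. The fit was run on simulated data with known changes, drawn as independent normal noise with the fit's own variances. It recovered 78% of log2 changes of 0.5 and 100% of changes of 1, and called 15 of 17993 unchanged genes. Such noise meets the assumptions of the fit, so these shares cannot show whether the arrays do.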

Additional observations from a re-analysis of the deposited data

How the results depend on the processing

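No gene-level difference of a member changed sign under any alternative run. Among probe sets that were not kept, 1 of Mycn went from 0.05 to -0.05 without day 3 replicate 1. For Mxd4, 1 went from -0.18 to 0.09 without day 0 replicate 1, and another from -0.04 to 0.03 without day 3 replicate 2. Of the 10 members, 9 were called (4 higher, 5 lower), and of the 122 measured genes of the other lists, 70 (33 higher, 37 lower). With an unmoderated test, 4 members (2 higher, 2 lower), 2149 of all genes (1065 higher, 1084 lower), 25 list genes (14 higher, 11 lower) and 4 member probe sets (3 higher, 1 lower) were called. Against a log2 difference of 1 with limma's treat these were 4 members (2 higher, 2 lower), 1136 of all genes (664 higher, 472 lower), 27 list genes (16 higher, 11 lower) and 7 member probe sets (4 higher, 3 lower). In the main fit 7703 genes were called (3803 higher, 3900 lower). Without probe sets matching several transcripts 8 members had a value, and 2 were higher and 4 lower, against 3207 higher and 3415 lower of 16591 genes. Leaving out 1 array gave 8 to 9 members, 59 to 70 list genes, 12 to 15 member probe sets and 5848 to 7440 of all genes. Median centring moved every difference down by 0.13, so that 2864 genes were higher and 5652 lower, a share of 33.6% higher among calls against 49.4%, with 9 members called. Gata6 was then called lower, as it was without day 0 replicate 2. The replicate block left 9 members and 7660 genes called and 15 member probe sets against 14. The numbers were not taken as pairs, since the labels do not state that they pair samples. Deviations of same-numbered arrays correlated at -0.017 across genes, a single value that cannot show whether samples were paired. Myb, Mycl, Mybl2 and Mxd3 were called in every alternative that gave them a value except that treat did not call Mxd3. Mxd4 was called in 8 of 13 alternatives other than treat (adjusted p = 0.0019 to 0.29). Apart from construction (fewer degrees of freedom, a larger null difference, fewer probe sets) the cause of these changes was not tested. Levels near the arrays' first quartile limit what falls can be seen.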
